A study of Homo sapiens with 18 samples.

Results

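The protein genes of the cytosolic ribosome were described across normoxia and hypoxia, 3 times in culture and 3 human embryonic stem cell (hESC) lines. A feature of the arrays was taken as a member when its symbol on the platform was RPL, RPS or RPLP with a number and at most a short suffix (such as A, L, X or L1), which left out pseudogenes and the RPS6K kinases. By this rule 66 of the 23536 features were members. Values are given for 64 of them, 22 of the small subunit (RPS) and 42 of the large subunit (RPL and RPLP). Counts below are over these 64 unless another number is given. The other 2, RPS4Y1 and RPS4Y2, are Y-linked and their values are not given. Among the 64 were 7 paralogs of ribosomal proteins (RPL3L, RPL10L, RPL22L1, RPL26L1, RPL36AL, RPL39L and RPS27L). Other ribosomal protein genes, such as RPLP0, RPL13A and RPS27A, were not under their symbols in the platform table and were not analysed here.

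The lines H9, HS360 and HS401, established hESC lines with no genetic change made for the experiment, were grown without feeder cells on Matrigel in mTeSR1 medium. Each line was exposed to hypoxia (4% oxygen) or left in normoxia (21% oxygen), RNA was taken after 2 h, after 24 h and after 7 d, and the RNA of each culture was hybridised to a Human Exon array, which gave 6 groups of 3 arrays (1 of each line) and 18 arrays in all. The plates of the 7 d groups were moved to hypoxia a day after seeding, while those of the shorter exposures were first grown in normoxia for longer, so a comparison of 7 d with 2 h also compares plates of different total time in culture. Stock cultures had been kept on human foreskin fibroblasts.

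A ribosome is built from a small subunit, which reads the mRNA, and a large subunit, which joins the amino acids, each made of ribosomal RNA and many proteins, most of them present as a single copy. Growing cells, stem cells among them, spend much of their transcription on these genes. The mRNAs of vertebrate ribosomal proteins typically start with a C and a stretch of C and U, the terminal oligopyrimidine (TOP) motif, through which mTOR and the RNA-binding protein LARP1 control how much of the mRNA is translated. An array measures the amount of the mRNA and not its translation.

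The start of each gene is shown first for the members on which the results below turn. RefSeq's promoter table (GRCh38.p14) held 55 of the 64 members, and for each a window of 30 bases was read, 15 before the annotated start and 15 from it on, with the longest unbroken run of C and T that touched the 5 bases either side of the start in capitals. Runs were searched on the strand of the gene only, and a run longer than the window is cut at its edge. The first set are genes that were higher at 7 d than at 2 h and carry a run of 8 or more letters.
RPS21, chr20:62387088-62387117, plus strand: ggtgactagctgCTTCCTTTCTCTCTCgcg
RPL24, chr3:101686704-101686733, minus strand: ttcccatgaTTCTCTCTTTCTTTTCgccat
RPS16, chr19:39435935-39435964, minus strand: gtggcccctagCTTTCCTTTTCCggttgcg
RPS19, chr19:41860240-41860269, plus strand: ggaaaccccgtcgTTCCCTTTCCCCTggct
RPS24, chr10:78033848-78033877, plus strand: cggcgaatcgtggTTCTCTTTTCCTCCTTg
RPLP2, chr11:809952-809981, plus strand: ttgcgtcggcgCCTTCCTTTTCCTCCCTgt
The next set were also higher at 7 d but hold only short runs in this window.
RPL10, chrX:154398050-154398079, plus strand: tttttccaCTCTCagaaatatacgtctgtc
RPS29, chr14:49598696-49598725, minus strand: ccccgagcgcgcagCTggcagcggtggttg
RPL3, chr22:39319609-39319638, minus strand: gtaaggccgaccggCCTCTaccggcgggat
RPS15, chr19:1438381-1438410, plus strand: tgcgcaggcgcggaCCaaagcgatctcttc
The last set holds RPL22L1, which was lower at 7 d, its paralog RPL22 and RPS26, which differed between lines, and RPS6, whose level moved little.
RPL22L1, chr3:170870181-170870210, minus strand: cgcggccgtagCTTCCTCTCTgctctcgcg
RPL22, chr1:6199581-6199610, minus strand: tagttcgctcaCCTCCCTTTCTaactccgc
RPS26, chr12:56041903-56041932, plus strand: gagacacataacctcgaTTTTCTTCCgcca
RPS6, chr9:19380222-19380251, minus strand: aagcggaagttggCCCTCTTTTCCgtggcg
In 37 of the 55 members (67.3%) the run had at least 8 letters, against 3921 of 35116 promoters of all genes (11.2%) and 6 of 69 mitochondrial ribosomal protein genes (8.7%). The median run was 11 letters in the members and 4 in all promoters. A run of this kind is a description of the letters at the annotated start, and a short run says only that these letters are not in this window.

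Facts of the whole series that touch the results are these. The lower quartile of the log2 intensities lay between 5.64 and 5.70 on 5 arrays and between 5.89 and 6.17 on the other 13. These 5 arrays were H9 in hypoxia at 2 h and 24 h, HS401 in normoxia at 2 h and HS401 in both oxygen levels at 24 h, so none was of 7 d and none was of HS360. All 13 measured hESC markers, POU5F1 and SOX2 among them, lay above the median feature, as did 14 of 16 fibroblast markers. The mean of 16 fibroblast markers, COL1A1 and DCN among them, was 9.07 to 10.25 at 2 h, 9.32 to 9.72 at 24 h and 7.97 to 8.93 at 7 d (log2 intensity, 6 arrays each).

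The members gave strong signals. Their median log2 intensity over 18 arrays was 9.85, against 7.21 for all features, and 60 of 64 lay above the median feature. The signal of a feature also depends on its probes, so the order of the genes is an order of array signals and not of mRNA numbers. The strongest signals were those of RPS25 (mean 13.32, range 13.02 to 13.65), RPS18 (12.74), RPS4X (12.68), RPS3 (12.57), a protein at the entry of the mRNA channel, and RPL3 (12.47), which reaches toward the site of peptide bond formation. The weakest were RPL26L1 (3.97, range 3.67 to 4.24), RPL10L (6.89), RPL22L1 (6.98), RPL39L (7.19) and RPL10 (7.23), and the first 4 of these are paralogs.

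**Figure D1:**
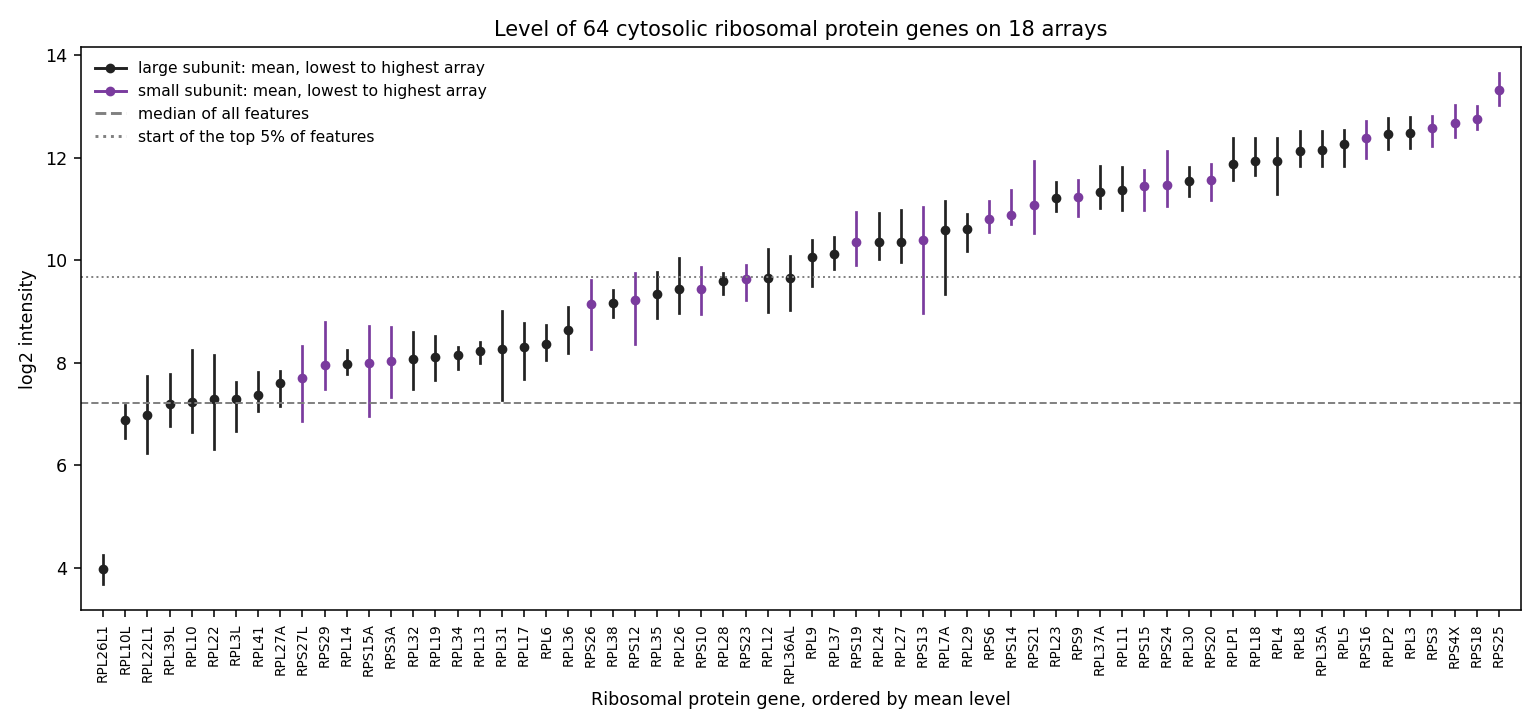
Log2 intensity (y axis) of the 64 ribosomal protein genes (x axis, ordered by mean level), with a point at the mean of 18 arrays and a line from the lowest to the highest array. Most members lie above the median of all features (7.21, dashed), and RPL26L1, at 3.97, lies far below it.

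From array to array the members varied a little less than other features. The median SD over the 18 arrays was 0.22, against 0.26 for all features, and after the groups and lines were fitted the median residual SD was 0.16 against 0.23. The members also had stronger signals than most features, and they were not compared with features of like level. The steadiest were RPL13 (SD 0.11), RPL28 (0.11, range 9.33 to 9.75), RPL14 (0.12), RPL34 (0.13) and RPS18 (0.14). RPS6, the substrate of the S6 kinases, had an SD of 0.15 and RPL23 of the same (0.15). The widest were RPS13 (SD 0.52, range 8.97 to 11.04), RPL7A (0.50, range 9.34 to 11.16), RPL22 (0.49), RPS27L (0.46) and RPL31 (0.43). Members of 1 particle thus differed in how much their signals varied.

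Part of this spread went with the lower quartile of the arrays. RPL7A, a large subunit protein, lay between 9.34 and 10.12 (median 10.06) on the 5 arrays of low lower quartile and between 10.48 and 11.16 (median 10.80) on the other 13. RPS10, at the head of the small subunit, lay between 8.94 and 9.08 on the 5 arrays and between 9.34 and 9.87 on the others. RPL3L and RPL36 likewise did not overlap, at 6.67 to 7.04 against 7.20 to 7.62 and at 8.18 to 8.34 against 8.54 to 9.08. These 4 of 64 members were lower without overlap, where 19.1% of all features were, and 0 of 64 were higher without overlap, where 1.76% of all features were. RPL22L1 had the largest difference the other way, with a median of 7.53 on the 5 arrays (7.17 to 7.74) and 6.81 on the 13 (6.23 to 7.21), and its ranges overlapped. RPS6 was not among the separated members. The part of these arrays in the comparisons below was followed by fits without them.

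**Figure D2:**
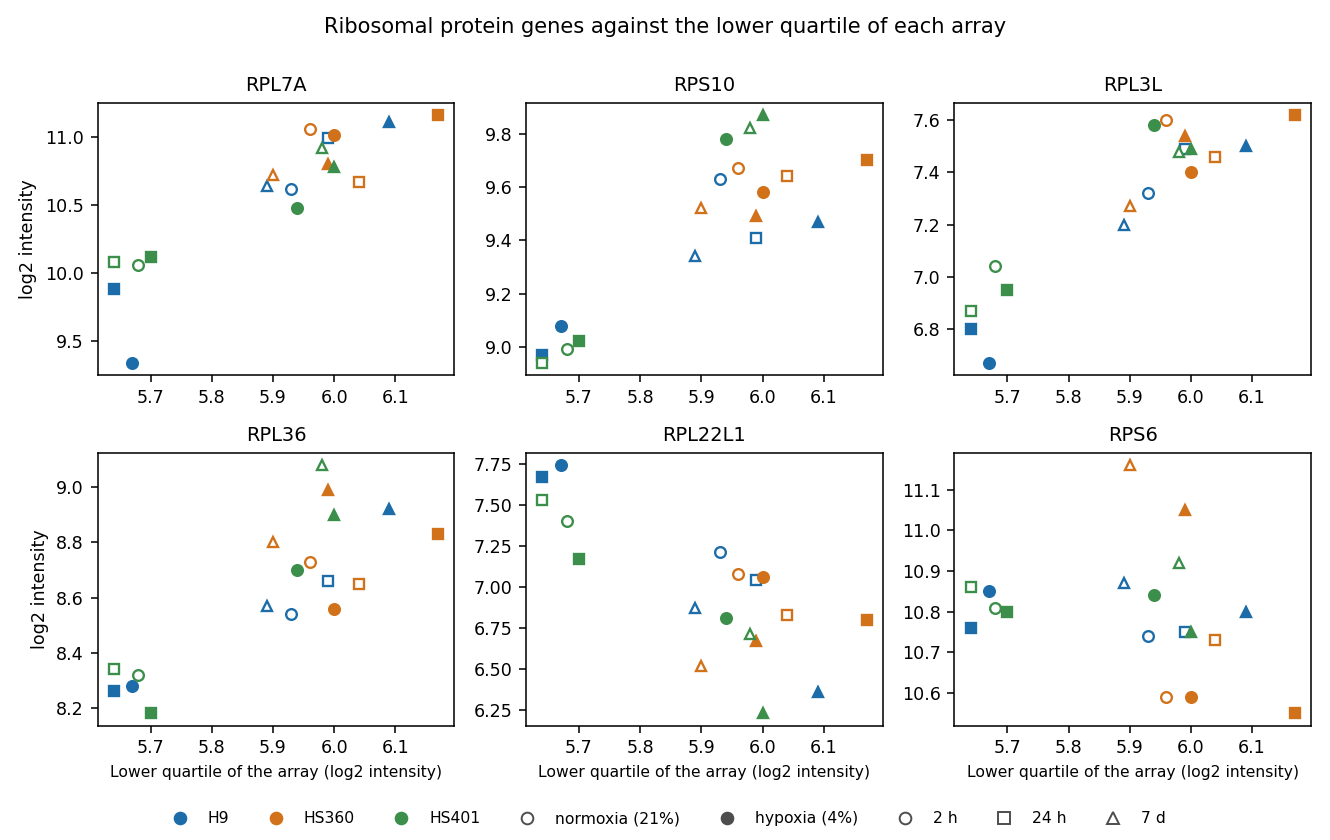
Log2 intensity of 6 members (y axis) against the lower quartile of all features on the same array (x axis, log2 intensity), 1 point per array, colour for the line, fill for oxygen and shape for time. RPL7A, RPS10, RPL3L and RPL36 sit low on the 5 arrays with a lower quartile of 5.70 or less, RPL22L1 sits high there, and RPS6 does not separate.

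The first question was whether hypoxia changed the ribosomal protein genes. No member passed an adjusted p of 0.05 (limma, adjusted over all features) at 2 h, 24 h or 7 d or over the mean of the 3 times, where 0%, 0.00425%, 0.0212% and 0.11% of all features were called. With the cutoffs of the study itself, a p of 0.01 before adjustment and a 1.5-fold change, the count was also 0 of 64 at each time, against 0.085%, 0.421% and 0.867% of all features. At an unadjusted p under 0.05 there were 1, 1 and 2 members at 2 h, 24 h and 7 d and 2 over the mean of the times (limma), against 0.782%, 2.7%, 7.1% and 4.3% of all features. The median change of the members in hypoxia was 0.04, 0.04 and 0.00 on the log2 scale at 2 h, 24 h and 7 d, beside 0.00, -0.03 and 0.06 for all features. Over the mean of the times it was 0.02 for the members and 0.00 for all features, and 39 of 64 members had a value above 0.

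These values bound the size of an effect. Over the mean of the 3 times the 95% interval lay within 1.5-fold in either direction for 64 of 64 members, and at the single times for 53, 52 and 48 of them. For RPS6 the change over the mean was -0.05 with an interval from -0.21 to 0.12. RPS3 changed by 0.00 (interval -0.16 to 0.16) and RPS14, the gene lost in the 5q- syndrome, by 0.01 (-0.17 to 0.18). RPL5 and RPL11, which bind the small ribosomal RNA of the large subunit and, when free, the p53 regulator MDM2, had changes of 0.05 (-0.11 to 0.21) and 0.09 (-0.06 to 0.23). The stalk protein RPLP1 had a change of 0.01 (-0.19 to 0.21).

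RPS29, a small zinc-binding protein of the small subunit, had the largest mean change. Its log2 intensity was 7.49 at the lowest, 7.78 at the median and 8.25 at the highest over the 9 normoxia arrays, and 7.62, 8.21 and 8.80 over the 9 hypoxia arrays, so the groups overlapped. The difference was 0.29 (SE 0.10, interval 0.08 to 0.50), in the same direction in 8 of 9 matched cultures. Its adjusted p in limma was 0.794. RPS15A followed with 0.23 (SE 0.10, interval 0.02 to 0.43, 7 of 9 matched cultures) and the paralog RPL39L with 0.17 (SE 0.09), neither past the adjustment. The largest values below 0 were those of RPL7A (-0.12), RPL31 (-0.11) and RPL22 (-0.08), each with an interval that spans 0.

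At the single times the members with the largest values were different ones. At 2 h they were RPS13 (0.40), RPL24 (0.36) and RPS15A (0.34) above 0 and RPL7A (-0.30), RPS19 (-0.13) and RPL26 (-0.13) below. At 24 h they were the paralog RPL39L (0.35), RPS29 (0.30) and RPS12 (0.26), and below 0 RPS13 (-0.29), RPL41 (-0.22) and RPL9 (-0.21). RPS13 thus stood first in opposite directions at these times, with an SE of 0.26 at each. At 7 d RPL10, RPS29 and RPS3A had 0.47, 0.40 and 0.40, and RPS27L, RPL22 and RPS12 had -0.43, -0.39 and -0.35. RPL10, which joins the large subunit late in its assembly, measured 7.54, 7.37 and 6.97 in normoxia at 7 d and 8.25, 7.81 and 7.23 in hypoxia (H9, HS360 and HS401). It was higher in hypoxia in each line, the groups overlapped, and the adjusted p was 0.665 (limma). RPS29 measured 7.88, 8.25 and 8.16 in normoxia and 8.39, 8.80 and 8.31 in hypoxia at 7 d, without overlap, with an adjusted p of 0.669 (limma). The fibroblast markers had a median change of 0.42 in hypoxia at 7 d, with 13 of 16 above 0 and 0 called (3 at an unadjusted p under 0.05, limma), and their part in these values was not tested.

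No member's response to hypoxia differed between times or between lines by a test of the difference. For the 3 contrasts between times 0, 0 and 2 members had an unadjusted p under 0.05 (24 h against 2 h, 7 d against 2 h and 7 d against 24 h, limma), against 0.769%, 3.09% and 3.24% of all features, and 0 passed the adjustment. For the lines limma's F test called 0 of all features after adjustment, and the lowest adjusted p of a member was 0.999. In HS401 at 7 d the median member was lower in hypoxia, by 0.13 on the log2 scale with 19 of 64 members above 0, while the medians of H9 and HS360 were 0.05 and 0.09 with 34 and 48 above 0.

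**Figure D3:**
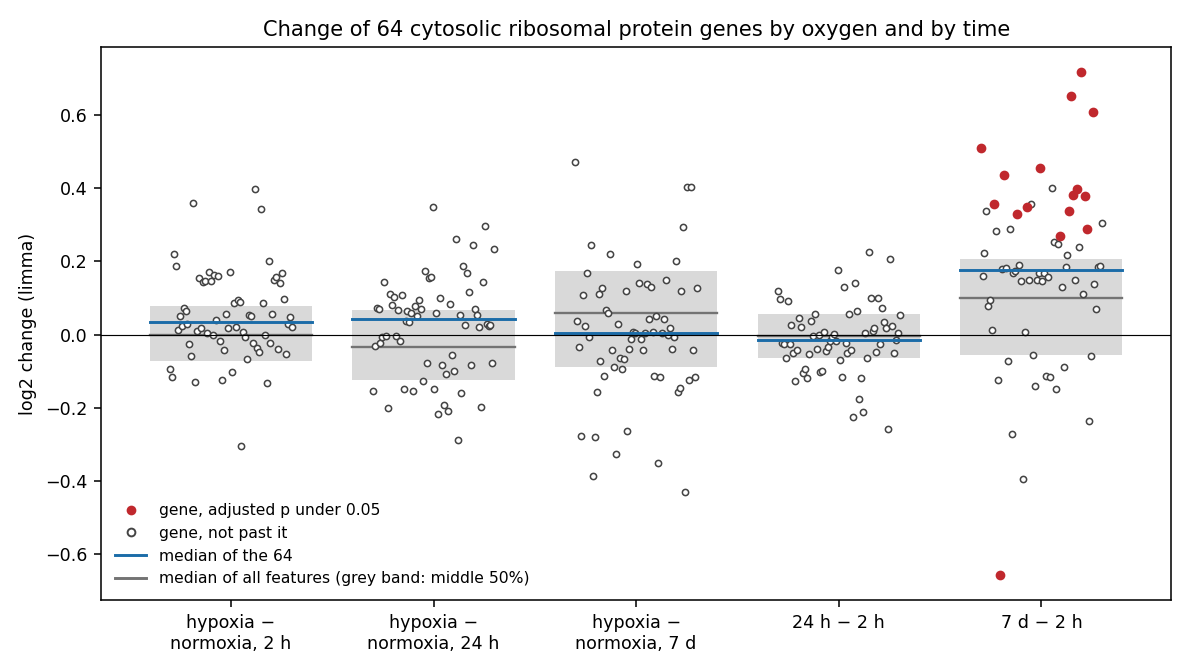
Log2 change from limma (y axis) of each of the 64 members in 5 comparisons (x axis), red where the adjusted p was under 0.05, with the members' median in blue and the median and middle 50% of all features in grey. Only the comparison of 7 d with 2 h has red points, 15 above 0 and 1 (RPL22L1) below.

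Time in culture was the second axis of the design. At 24 h no member differed from 2 h (0 of 64, 0% of all features, limma adjusted p), and 1 member, RPL9 at -0.23 (SE 0.09), had an unadjusted p under 0.05, against 1.44% of all features. The largest values above 0 were those of RPS15A (0.23), RPS29 (0.21) and RPL39L (0.18), and below 0, beside RPL9, those of RPS27L (-0.26) and RPS13 (-0.21). At 7 d, 15 of 64 members were higher than at 2 h over both oxygen levels (23.4%, against 4.72% of all features) and 1 was lower (1.56%, against 4.14%). Tested only among features above the median level, 17 of 60 members were higher, against 9.55% of those features, and 1 was lower, against 9.3%. The members' median was 0.18 on the log2 scale, beside 0.10 for all features, and 51 of 64 (79.7%) lay above 0, as did 68% of all features. At an unadjusted p under 0.05 the counts were 27 higher (13.8% of all features) and 4 lower (9.56% of all features, limma). In the 6 pairs of line and oxygen level the members' median ran from 0.05 (HS401, hypoxia) to 0.31 (HS360, hypoxia) and was above 0 in each.

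The calls came from both subunits. Of the small subunit 8 of 22 members rose (RPS15, RPS15A, RPS16, RPS19, RPS21, RPS24, RPS25 and RPS29), and of the large subunit 7 of 42 (RPL3, RPL10, RPL18, RPL24, RPL35, RPL39L and RPLP2). RPS21, a small protein of the small subunit, rose most. It ran from 10.52 to 11.04 at 2 h (median 10.80), from 10.69 to 11.07 at 24 h (median 10.91) and from 11.11 to 11.94 at 7 d (median 11.50). The 7 d arrays lay above all others. The change was 0.72 (1.64-fold, SE 0.11, adjusted p = 0.00159, limma), from 0.41 to 1.02 over the 6 pairs. Its start carries a run of 15 letters of C and T.

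RPS15A, another small subunit protein, ran from 6.95 to 7.98 at 2 h (median 7.83), from 7.64 to 8.10 at 24 h and from 8.14 to 8.71 at 7 d (median 8.30). Here too the 7 d arrays lay above the rest, and HS360 in normoxia at 2 h (6.95) lay below all others. The change was 0.65 (1.57-fold, SE 0.12, adjusted p = 0.00397, limma) and was above 0 in 6 of 6 pairs. RPS29 ran from 7.49 to 7.94 at 2 h, from 7.66 to 8.25 at 24 h and from 7.88 to 8.80 at 7 d. Its ranges overlapped between all times, and the change was 0.61 (1.52-fold, SE 0.12, adjusted p = 0.00706, limma, 6 of 6 pairs). The rises of RPS21, RPS15A and RPS29 also passed an unadjusted p of 0.01 (limma) and 1.5-fold, cutoffs that the study applied to hypoxia against normoxia and not to time.

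RPL10 rose by 0.51 (SE 0.14, adjusted p = 0.0381, limma), unevenly. Its change was 1.57 in H9 in hypoxia, from 6.68 to 8.25, and between -0.06 and 0.49 in the other 5 pairs. Next came RPL39L with 0.45 (SE 0.10, adjusted p = 0.0155, limma), a paralog of the exit tunnel protein RPL39 known from testis, whose 2 h arrays ended at 7.19 and whose 7 d arrays began at 7.21. RPL24 rose by 0.44 (SE 0.09, adjusted p = 0.00960, limma) and sits at the face where the subunits meet. RPL24 ran from 10.01 to 10.74 at 2 h and from 10.47 to 10.92 at 7 d, and 1 array (HS401, hypoxia, 10.74) put the 2 h range above part of the 7 d range. The other risers changed by 0.27 (RPLP2, the stalk protein) to 0.40 (RPS19, mutated in Diamond-Blackfan anaemia). RPS16 (0.38, SE 0.08) ran from 11.99 to 12.41 at 2 h and from 12.52 to 12.71 at 7 d, again without overlap, and RPS25 (0.29) from 13.02 to 13.36 and from 13.35 to 13.65. The change was above 0 in 6 of 6 pairs for these genes and for RPL3 (0.33), RPL18 (0.36), RPL35 (0.35) and RPS15 (0.34), and in 5 of 6 for RPS24 (0.38), which had -0.20 in HS401 in hypoxia. A larger value than many of these, 0.40 for RPL7A, did not pass (SE 0.25), and its pairs ran from -0.34 to 1.77, the highest being H9 in hypoxia, whose 2 h array is of low lower quartile.

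RPL22L1, the paralog of RPL22, was the only member that fell. It ran from 6.81 to 7.74 at 2 h (median 7.15), from 6.80 to 7.67 at 24 h (median 7.11) and from 6.23 to 6.87 at 7 d (median 6.60). The 2 h and 7 d ranges met only at HS401 in hypoxia at 2 h (6.81) and H9 in normoxia at 7 d (6.87). The change was -0.66 (1.58-fold lower, SE 0.17, adjusted p = 0.0245, limma) in 6 of 6 pairs. RPL32 (-0.40, adjusted p = 0.0684) and RPL27A (-0.27, adjusted p = 0.111, both limma) had the next largest values below 0. Members that did not pass the adjustment included RPS6 (0.19), RPS14 (0.22), RPL11 (0.22), RPL23 (0.18), RPL4 (0.17), RPL5 (0.16) and RPS3 (0.14).

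**Figure D4:**
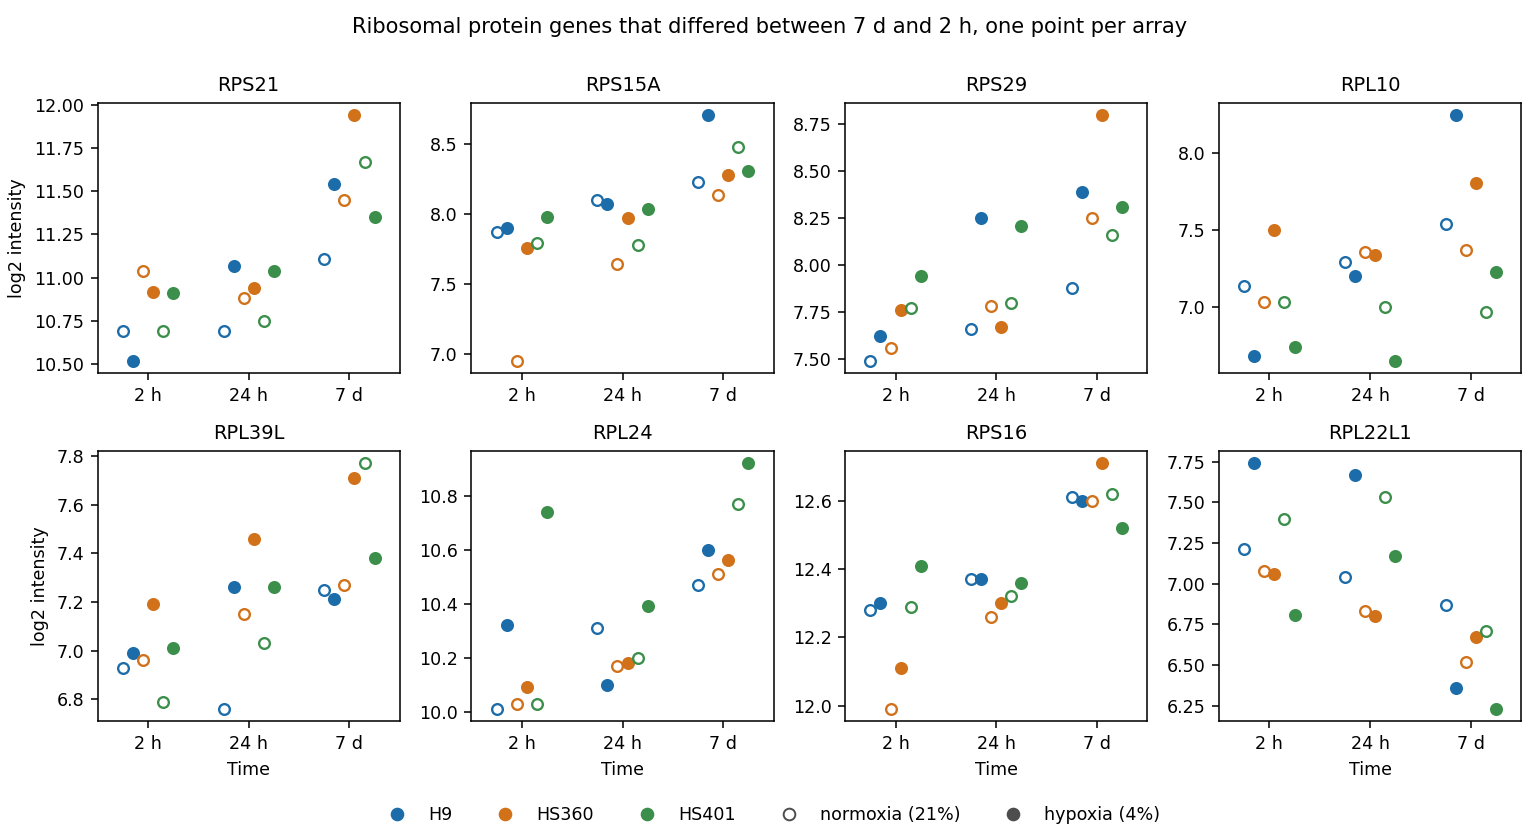
Log2 intensity (y axis) of 8 members at 2 h, 24 h and 7 d (x axis), 1 point per array, colour for the line, open for normoxia and filled for hypoxia. For RPS21 and RPS15A the 6 arrays of 7 d lie above all arrays of 2 h and 24 h, and for RPL22L1 they lie at 6.87 or less.

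Within one oxygen level, with 3 arrays at each time, fewer members were called. In normoxia RPS15A rose by 0.75 (SE 0.17, adjusted p = 0.0436, limma), 1 of 64 members against 0.412% of all features. In hypoxia RPS21 (0.83), RPL10 (0.79) and RPS29 (0.73) rose, 3 of 64 against 1.59%. Both counts were 0 with no block for the line, without the 5 arrays of low lower quartile, with the fibroblast covariate described below and without any one of the lines, and with the lower quartile as a covariate they were 16 in normoxia and 4 in hypoxia. Of all features at most 0.0297% (normoxia) and 0.527% (hypoxia) were higher in the fits with counts of 0. With the lower quartile as a covariate these shares were 3.07% and 4.09%. The difference between the oxygen levels was not past the adjustment for any member. Against 24 h, 7 members were higher at 7 d (RPS21, RPL24, RPL27, RPS15, RPS19, RPL18 and RPL8, by 0.30 to 0.62), against 2.06% of all features, and 0 were lower (5 lower at an unadjusted p under 0.05, limma, against 7.81%). This count of 7 was 1 (RPS21) with no block, 24 with the lower quartile as a covariate, and 0 with the fibroblast covariate and without any one of the lines. Without the 5 arrays of low lower quartile 1 member was called, RPS13, which was not among the 7. Of all features 0.297% were higher with no block, 5.66% with the lower quartile as a covariate and 0.034% without the 5 arrays. The share was 0.00425% with the fibroblast covariate and at most 1.16% without a line. The 7 d arrays are shared by the comparisons with 2 h and with 24 h.

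Values that moved with time are given beside these counts. The fibroblast markers did not overlap between 7 d and the earlier times, and 13 of 16 fell from 2 h to 7 d (limma), with a median change of -1.198. In a bulk sample, fewer cells of a type and less RNA per cell cannot be told apart. With the mean of these markers as a covariate, 0 of 64 members and 0 of all 23536 features were called between 7 d and 2 h. The members' median was 0.07 and that of all features 0.14. The covariate did not overlap between 2 h and 7 d, so this fit can hardly tell it from time. It therefore cannot decide how much of the rise went with these markers. Without the 5 arrays of low lower quartile 7 members were higher, against 3.52% of all features. Of these 7, 6 were among the 15 (RPL10, RPL24, RPS15A, RPS16, RPS21 and RPS29) with RPS13 added, and RPL22L1 was still lower. With each array centred on its median 9 were higher, against 3.1% of all features. Without H9, HS360 or HS401 in turn 0, 1 and 2 members were higher, against 0.421%, 1.27% and 1.17% of all features. Without any one of the lines RPL22L1 was no longer called. RPS21 was called without HS360 or HS401 and had an adjusted p of 0.0569 without H9 (limma).

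Of 13 risers with a promoter entry 9 had a run of 8 or more letters of C and T at the start, as had 37 of all 55 members with an entry. Over all members with an entry the median change from 2 h to 7 d was 0.17 for the 37 with the run and 0.18 for the 18 without. The median change was 0.23 in the 32 members of stronger signal and 0.10 in the other 32, and across the 64 members level and change gave r = 0.35 and rho = 0.35, a description over genes that share the same arrays.

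Other genes of the translation machinery are set beside the members. The 76 mitochondrial ribosomal protein genes had a median change of -0.02 from 2 h to 7 d. Of these, 1 was higher and 1 lower, against 4.72% and 4.14% of all features. Of 19 measured translation factors and other genes known for a TOP motif, 16 lay above 0 with a median of 0.14. The initiation factor EIF4B rose by 0.39 (SE 0.10, adjusted p = 0.0283, limma) and the poly(A)-binding protein PABPC4 fell by 0.37 (SE 0.10, adjusted p = 0.0275, limma), while EEF1A1 (-0.12), EEF2 (0.19), PABPC1 (0.11) and TPT1 (0.29) did not pass. Of 14 genes of the mTOR and LARP1 arm, TSC1, an inhibitor of mTOR, rose by 0.41 (adjusted p = 0.0109, limma) and EIF4G1, the scaffold of cap-dependent initiation, fell by 0.45 (adjusted p = 0.00397, limma). MTOR (-0.18) and LARP1 (0.04) did not pass. The ribosomal protein gene FAU, outside the symbol rule, changed by 0.12. In hypoxia 0 genes of these lists passed at 7 d or over the mean of the times (limma). At 7 d 4 mitochondrial ribosomal protein genes, 0 of the translation factor list and 1 of the mTOR and LARP1 arm had an unadjusted p under 0.05. Of all features 7.1% had.

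The third axis was the line, over its 6 arrays each. Between HS360 and H9, 1 member was higher in HS360 (RPS26, against 1.07% of all features) and 1 lower (RPS4X, against 2.27%). Between HS401 and H9, 7 were higher in HS401 (RPL6, RPL12, RPL22, RPL26, RPS12, RPS24 and RPS26, against 4.9%) and 1 lower (RPS4X, against 5.2%). Between HS401 and HS360, 9 were higher in HS401 (RPL4, RPL6, RPL11, RPL12, RPL22, RPL35A, RPL41, RPS13 and RPS24, against 7.66%) and 2 lower (RPL9 and RPL10, against 5.71%). The members' medians in these comparisons were -0.03, 0.10 and 0.13, beside 0.08, -0.04 and -0.12 for all features. The 3 comparisons share arrays. Each array centred on its median gave 19 higher and 0 lower between HS401 and HS360, where 10.6% of all features were then higher and 3.57% lower, and there the median of all features moved from -0.12 to -0.02. Between HS360 and H9 centring gave 0 higher and 2 lower, beside 0.841% and 2.58% of all features.

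RPS26, mutated in Diamond-Blackfan anaemia, separated H9 from the other lines. It ran from 8.26 to 8.96 in H9 (median 8.85), from 9.04 to 9.52 in HS360 (median 9.25) and from 9.12 to 9.61 in HS401 (median 9.41). No H9 array reached the others, and HS360 and HS401 overlapped. HS401 was higher than H9 by 0.65 (1.57-fold, SE 0.10, adjusted p = 0.000997, limma) and HS360 by 0.51 (1.42-fold, SE 0.10, adjusted p = 0.0138), each in 6 of 6 pairs. The 11 RPS26 pseudogene features had a median change of 0.49 between HS401 and H9, and 5 of them were called higher. Probes for near-identical copies can take up each other's signal, so for RPS26 the gene and its copies cannot be told apart.

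RPS4X, encoded on the X chromosome, ran from 12.79 to 13.03 in H9, from 12.44 to 12.75 in HS360 and from 12.40 to 12.75 in HS401. All H9 arrays lay above all others, by 0.34 over HS360 and 0.32 over HS401 (SE 0.08 each, adjusted p = 0.0247 and 0.0137, limma). RPL22, an RNA-binding protein of the large subunit, ran from 7.40 to 8.15 in HS401, from 6.31 to 7.66 in H9 and from 6.57 to 7.28 in HS360. HS401 lay above HS360 on every array, by 0.77 (SE 0.20, adjusted p = 0.0210, limma), and above H9 by 0.73 (adjusted p = 0.0285) in 5 of 6 pairs. Its values were widest in H9, where the arrays of low lower quartile gave the 2 highest, 7.66 and 7.38.

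RPS13 ran from 10.56 to 10.97 in HS401 and from 8.97 to 10.29 in HS360, without overlap, a difference of 0.85 (1.80-fold, SE 0.19, adjusted p = 0.00905, limma). RPL6 ran from 8.39 to 8.74 in HS401, from 8.05 to 8.21 in HS360 and from 8.23 to 8.44 in H9, so that HS401 and HS360 did not overlap (difference 0.46, SE 0.08, adjusted p = 0.00140, limma). RPL12, at the base of the stalk, was 0.56 higher in HS401 than in HS360 and 0.53 higher than in H9, with differences against HS360 of 0.19 and 0.02 at 7 d and of at least 0.36 at the earlier times. RPL4, whose loop lines the exit tunnel, was higher by 0.47, RPL11 by 0.41, and RPS24, RPL35A and RPL41 by 0.29 to 0.33. RPL10 was lower in HS401 than in HS360 by 0.47 and RPL9 by 0.30, and RPL7A (-0.50, adjusted p = 0.160, limma) did not pass. Against H9, HS360 had 0.47 for RPL7A, 0.35 for RPS27L, -0.65 for RPS13, -0.45 for RPL17 and -0.44 for RPL31, and HS401 had -0.41 for RPL10 and -0.40 for RPL31, none past the adjustment. RPS12, RPL26 and RPS24 were higher in HS401 than in H9 by 0.56, 0.52 and 0.48.

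Of the 5 arrays of low lower quartile, 3 were of HS401 and 2 of H9, and the line comparisons moved with them. Without them the counts were 1 higher and 0 lower for HS360 against H9, beside 0.37% and 0.637% of all features. For HS401 against H9 they were 2 higher (RPL22 and RPS26) and 1 lower (RPL10), beside 2.14% and 1.81%. For HS401 against HS360 they were 1 higher (RPL24) and 1 lower (RPL10), beside 2.53% and 1.51%. RPS26 was still called in both comparisons with H9, and none of the 9 members higher in HS401 than in HS360 was still called. The share of all features higher in HS401 than in HS360 fell from 7.66% to 2.53%.

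**Figure D5:**
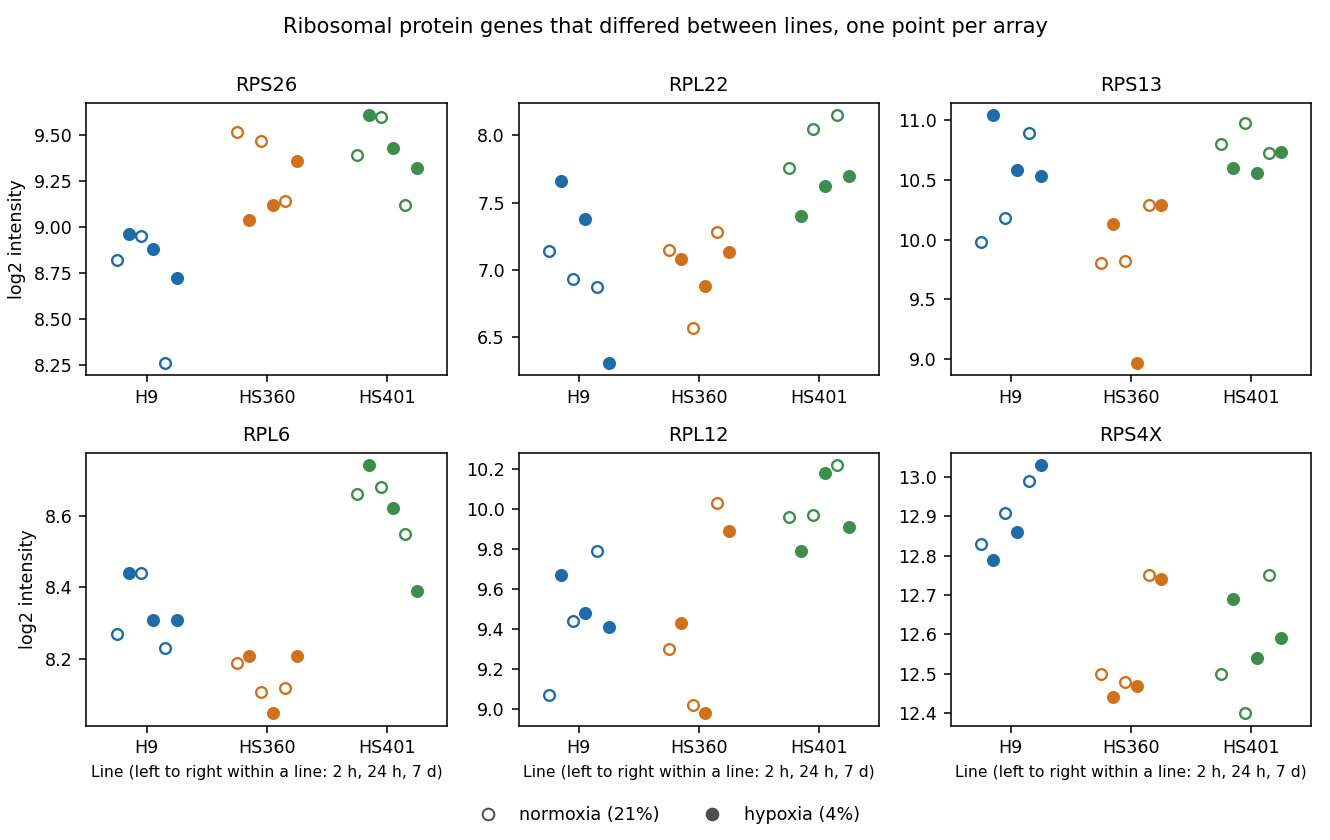
Log2 intensity (y axis) of 6 members in each line (x axis, with 2 h, 24 h and 7 d from left to right within a line), 1 point per array, open for normoxia and filled for hypoxia. RPS26 lies at 8.96 or less in H9 and at 9.04 or more elsewhere, and RPS4X lies at 12.79 or more in H9 and at 12.75 or less elsewhere.

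The paralogs are set beside their partners here. RPL22L1 fell by 0.66 from 2 h to 7 d, while RPL22 had -0.13 (SE 0.20) and differed between lines. RPL10L had 0.16 (SE 0.12) over the same time, where RPL10 rose. RPL3L, known from striated muscle, had 0.15 (SE 0.16) where RPL3 rose by 0.33. RPL26L1, with the weakest signal, had -0.07 and RPL26 0.18, neither past the test. RPS27L, a target of p53, had -0.06, RPL36AL -0.06 and RPL39L 0.45, and their partners were not under their symbols in the platform table. The differences between partners were not tested.

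Ribosomal protein genes have many processed pseudogenes, and 341 pseudogene features stood on the arrays, for 50 of the 64 members at least 1. From 2 h to 7 d they had a median change of 0.13. Of the 341, 12 were higher and 0 lower, against 4.72% and 4.14% of all features. At an unadjusted p under 0.05 (limma) there were 55, where 13.8% of all features were higher and 9.56% lower. Among the 12 were RPS29P9 (0.55), RPL10P19 (0.55) and RPS25P8 (0.40), copies of members that rose, and RPS9P4 (0.41) and RPL32P3 (0.34), copies of members that did not pass. RPS21, the largest riser, had no pseudogene feature, and the 7 copies of RPS15A had changes of 0.12 to 0.36 with none called. How far the probes of a member and of its copies share signal was not tested.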

How the data were processed

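RNA of the 18 hESC cultures was measured on Affymetrix Human Exon 1.0 ST arrays. The authors normalized the arrays together by RMA in Chipster, with probes assigned to Entrez genes by a custom CDF, and deposited linear intensity values. Their log2 was taken here, and it lies on a grid of 0.01. Symbols came from the platform table for 20727 of 23536 features and 2809 had no symbol. The number of arrays limits the precision.

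All features were fitted with limma 3.58.1 (R 4.3.3). The model held the 6 group means and a fixed effect of line (10 residual and 4.24 prior degrees of freedom). Benjamini-Hochberg adjustment ran over all 23536 features, and an adjusted p under 0.05 was called. Cultures of the same cell line pair the groups, and after removal of the group means their values correlated above 0.1 in 8 of 9 pairs (-0.00534 to 0.776). Each line gave 1 array per group, and the line effect was fitted. A p-value for oxygen or time therefore measures how far the differences between groups varied from line to line. In a comparison of lines the 6 arrays of each are cultures of 1 line. A p-value there measures the spread between cultures of these lines and not between hESC lines in general. The fit was tested on simulated data.

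The members and the lists of other genes were chosen with earlier results of these data known. By rule the text named, per comparison, up to 6 called members in each direction, or the 3 largest values where fewer than 3 were called, the 5 strongest and weakest signals, the 5 largest and smallest SDs, a list of well-known members and the paralog pairs, and from each other list up to 4 called genes. The remaining called members, RPS10, RPL36, EEF1A1, EEF2, PABPC1, TPT1, MTOR, LARP1 and the pseudogenes were named beyond this rule after their values were seen. Start windows were read from RefSeq promoters (GRCh38.p14). Alternatives were no block, the line as a random block, pairs as a block, single time points, a second quantile normalization, centring, stronger features only, trend and robust variances and each line left out. Chosen after seeing the data were 2 covariates (the lower quartile of the array and the fibroblast marker mean) and leaving out 5 arrays with a low lower quartile.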

Additional observations from a re-analysis of the deposited data

Results flagged for a closer look

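For 3 members the effect of hypoxia had one sign in all 3 lines at 24 h and the other sign in all 3 lines at 7 d. RPL10 was lower in hypoxia by 0.15 on average at 24 h (from -0.35 to -0.02 over the lines) and higher by 0.47 at 7 d (0.26 to 0.71). The difference between the times was 0.62 (SE 0.28), with an adjusted p of 0.901 (limma). RPL9 was lower by 0.21 at 24 h (-0.36 to -0.02) and higher by 0.13 at 7 d (0.09 to 0.17). Its difference was 0.34 (SE 0.17), also with an adjusted p of 0.901 (limma). RPS26 was lower by 0.20 at 24 h (-0.35 to -0.07) and higher by 0.29 at 7 d (0.20 to 0.46), a difference of 0.49 (SE 0.21) with an adjusted p of 0.901 (limma).

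Between 2 h and 24 h the sign turned in all 3 lines for 2 further members. RPL6 was higher in hypoxia by 0.09 at 2 h (0.02 to 0.17) and lower by 0.08 at 24 h (-0.13 to -0.06), a difference of -0.17 (SE 0.15). RPS20 was higher by 0.20 at 2 h (0.03 to 0.49) and lower by 0.08 at 24 h (-0.12 to -0.06), a difference of -0.28 (SE 0.20). None of these 5 differences passed the test over all features. The share of all features whose sign turned in this way is not given here, so the counts of members cannot be set against it.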

How the results depend on the processing

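In hypoxia 0 members were called under every alternative run, at each time and over the mean of the times. The members' median at 24 h, 0.04, was 0.07 with each array centred on its median, -0.025 without the 5 arrays of low lower quartile, where H9 and HS401 kept no hypoxia array at 24 h, and 0.015 (without HS401) to 0.0375 when a line was left out. With each matched culture pair as a replicate block the count was also 0 and the median over the mean of the times was 0.02.

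The 15 members higher at 7 d than at 2 h became 4 with no replicate block (RPS15A, RPS16, RPS21 and RPS29), 9 with centring, 23 with the lower quartile as a covariate, 7 without the 5 arrays, 0 with the fibroblast covariate and 0 to 2 when a line was left out. Of all features 1.21%, 3.1%, 8.88%, 3.52% and 0% were higher in these fits in turn, and 0.421% to 1.27% when a line was left out. The count lower, 1, became 0 with no replicate block, with the fibroblast covariate and for each line left out. The median became 0.069 with the fibroblast covariate, which can hardly be told from time, and that of all features was 0.14 there. The other 4 alternatives gave 13 to 17 higher and 1 lower. Of the features tested, 3.45% to 9.55% were higher and 3.57% to 9.3% lower in these fits. The 17 and the 9.55% were those with stronger features only. With stronger features only, 60 members were tested, and RPL22L1 lay below the median feature and was not among them. The 1 lower there was RPL32. No call turned its direction under any alternative run.

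For HS360 against H9 the counts were 0 higher and 2 lower with centring, 2 and 4 with the lower quartile as a covariate, 1 and 2 with stronger features only, 1 and 0 without the 5 arrays, and 0 and 0 without HS401. For HS401 against H9 they were 13 and 4 with the lower quartile as a covariate, 10 and 2 with stronger features only, 8 and 2 with the fibroblast covariate, and 2 and 1 without the 5 arrays. For HS401 against HS360 they were 19 and 0 with centring, 18 and 2 with stronger features only, 5 and 1 without H9, and 1 and 1 without the 5 arrays. The median there was 0.24 with centring and 0.030 with a second quantile normalization. Over all features the shares higher and lower for HS401 against HS360 were 10.6% and 3.57% with centring and 4.25% and 2.58% without H9. Without the 5 arrays they were 2.53% and 1.51% there, 2.14% and 1.81% for HS401 against H9 and 0.37% and 0.637% for HS360 against H9. With stronger features only, where 60 members were tested, they were 15.3% and 9.02% for HS401 against HS360. There they were 7.99% and 9.21% for HS401 against H9 and 1.91% and 5.49% for HS360 against H9. With the lower quartile as a covariate these 2 comparisons had 9.25% and 11%, and 1.82% and 3.21%. HS401 against H9 had 4.65% and 4.4% with the fibroblast covariate. HS360 against H9 had 0.565% and 1.24% without HS401. The causes were not tested. The 3 arrays per group limit the single time points, where the median SE was 0.14.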
